A study of Mus musculus with 6 samples.

Results

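Classical monocytes are the Ly6c2-high and Ccr2-positive monocytes of the mouse. Here they were chosen from a table of single synovial leukocytes by raw counts of unique molecular identifiers (UMIs, tags that mark single RNA molecules). A cell was taken when it held at least 5 UMIs of Ly6c2, at least 1 of Ccr2 and at least 1 of Vcan, at most 2 of C1qa, C1qb and C1qc together, and 0 of Adgre4, Siglech and 1 further gene. The granulocyte enzyme transcripts Elane, Mpo and Prtn3 together had to stay below 0.5% of the UMIs of the cell. This rule took 2658 of 32953 cells. The cells were thus selected on the counts of these 12 genes, whose levels are given as a description.

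The cells came from male C57BL/6 mice, 8 weeks old at purchase, with antigen-induced arthritis (AIA). All mice were immunised under the skin with 10 μg methylated bovine serum albumin (mBSA) in complete Freund's adjuvant and received 100 μg mBSA into the knee joint on day 21. Injections into the peritoneum began on the same day, with phosphate-buffered saline (PBS) as the vehicle in 2 samples and with PEPITEM, a peptide, at 300 μg in the other 4. On day 3 after the challenge the joints were digested, and leukocytes, sorted as CD45+ cells, were sequenced from the 3′ end of their RNA. Whether a sample was 1 mouse or a pool was not given in the sources used here. The deposited table pools all samples. Its barcodes carry a library number from 1 to 6, and no source used here states which sample each number stands for, so PBS and PEPITEM were not compared and the 6 libraries are described by number without a test. Of these, library 1 stood apart in interferon and chemokine genes, and the main such levels are also given without it.

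Classical monocytes are made in the bone marrow from dividing precursors and leave it through the chemokine receptor CCR2. In an inflamed joint they are the main source of newly recruited macrophages, and they can also take on features of dendritic cells. Interferons, microbial products and immune complexes change what they express on the way.

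The marker genes matched the name. Ptprc, which encodes the CD45 used in the sort and is in none of the lists, was counted in 99.8% of the cells. Plac8, F13a1 and Ms4a4c, which the rule did not use, were pooled at 2101 CPM (2089 to 2113), 1066 CPM (1058 to 1075) and 479.9 CPM (474 to 486), where CPM is the UMIs of a gene per 1000000 UMIs of all classical monocytes and the brackets hold the exact 95% Poisson interval, which covers counting error only. F13a1, the A subunit of coagulation factor XIII, had lowest 793, median 1027 and highest 1256 CPM over the libraries. T cells of the same table, taken as cells that should lack F13a1, had 92.1 CPM. F13a1 was counted in 97.1% of the monocytes (median 17971 UMIs per cell) and in 7.45% of the T cells (median 10145 UMIs), and in 92.0% and 5.99% after each cell was thinned to 5000 UMIs. Of the genes of the rule, Ly6c2, Ccr2 and Vcan (versican, a matrix proteoglycan) stood at 2045, 689.5 and 677 CPM. Ly6c2 lies at chr15:75108158-75111970 on the minus strand of GRCm38, next to its close relative Ly6c1 at chr15:75044018-75048830, and Ly6c1 had 2.29 CPM. The pair are near-identical copies, so reads that fit both could have been split or lost in the counting. Levels of different genes are compared as UMI counts from 3′ libraries and were not corrected for gene length. Whether length affected them was not tested.

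Of the other genes named for this cell type, Lyz2 (lysozyme) stood at 15789 CPM (libraries 13753 to 19061), S100a4 at 1779 CPM (libraries 1525 to 2323), Chil3 (the lectin Ym1) at 1396 CPM (libraries 554 to 1594) and Cd14, part of the endotoxin receptor, at 1195 CPM (libraries 927 to 1784). Chil3 varied most of these and was lowest in libraries 3 and 1, with 554 and 806 CPM. The 11 genes of nonclassical, patrolling monocytes summed to 635 CPM and ranged from 286 CPM of Nr4a1, a nuclear receptor needed for these cells, to 0.613 of Cd300e, with 9.25 of Treml4, 103 of Pou2f2, 94.9 of Itgal, 74.4 of Cx3cr1 and 42.0 of Spn (CD43).

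Markers of other cell types were mostly near 0. The 5 T cell markers summed to 6.57 CPM, led by Cd3d at 2.22, the 4 natural killer cell markers to 7.29 (Nkg7 5.83), the 3 basophil markers to 0.559 (Mcpt8 0.325), the 5 erythroid markers to 0.271 (Hbb-bs 0.144) and the 4 resident macrophage markers outside the rule to 2.11 (Cd163 0.956). The megakaryocyte marker Gp1ba was at 0 and Pf4 of that list at 5.56 CPM. The type 1 and type 2 dendritic cell markers summed to 13.5 and 45.3 CPM, led by Flt3 at 6.19 and Clec10a. Mast cell markers summed to 5.21 CPM, led by Mcpt4 at 2.27, and endothelial markers to 17.3, led by Pecam1 at 15.9, which leukocytes also carry. Without library 5 the natural killer, mast cell and basophil sums were 4.18, 3.05 and 0.368 CPM. The erythroid sum was 0.160 CPM without library 1. Plasmacytoid dendritic cell markers outside the rule reached 247 CPM, mainly from the interferon-induced Bst2 at 144. Fibroblast markers summed to 36.2 CPM, led by Dcn at 19.8. In libraries 1 and 3 they reached 112 and 431 CPM, the pooled sum was 14.8 CPM without library 3, and 4 cells held 99.3% of the Dcn UMIs. Neutrophil markers (8149.6 CPM, led by Ngp) and B cell markers (489, nearly all Ighm) were higher and are described last. Of the classical monocytes, 44 also met the rule for B cells, 12 that for T cells and 37 that for neutrophils. Without the 698 cells that held a UMI of Ly6g or UMIs of at least 2 B cell, T cell or fibroblast markers, 1960 cells remained.

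Classical monocytes made up 8.07% of all cells (Wilson 95% interval 7.78% to 8.36%, counting error only). Libraries 1 to 6 held 7.26%, 5.39%, 5.07%, 7.36%, 9.62% and 10.1%. Libraries 5 and 6 were high and libraries 2 and 3 low, and their counting intervals did not overlap. The median depth per monocyte lay between 16213 UMIs in library 5 and 19856.5 in library 4, above the median of all cells in every library. With every cell thinned to 5000 UMIs, which left out shallower cells, the share was 6.87%. Barcodes were shared between libraries by 276 cells of the table and by 2 of the monocytes.

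**Figure D1:**
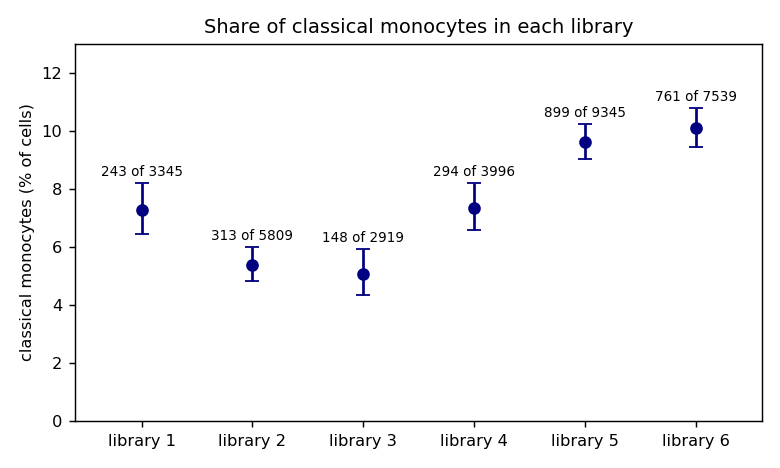
Classical monocytes as a percentage of all cells (vertical axis) in each library of unknown treatment. Points are shares, bars Wilson 95% intervals and the labels cell counts, from 5.07% in library 3 to 10.1% in library 6.

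The edges of the rule differed in how sharp they were. With 3 or 4 UMIs of Ly6c2, 76 cells stood just outside, and with 5 or 6 UMIs 64 stood just inside. The sides differed in Cd209a, a marker of type 2 dendritic cells, with 49.6 CPM outside and 1.12 inside. Both had few cell cycle transcripts (11.1 and 19.0 CPM of Mki67) and much H2-Aa, a chain of the MHC class II molecule (1971 and 2212 CPM), against 218 and 315 CPM in all classical monocytes. A further 1184 cells met all criteria but Vcan and had 851 CPM of F13a1, 294 of Mki67 and 578 of Prtn3, beside 897, 249 and 422 CPM in the 330 members with exactly 1 UMI of Vcan. The limit on precursor enzymes kept out 43 cells, with 2.65 CPM of H2-Aa and 4323 of Prtn3. Removing the Vcan criterion gave 3842 cells and removing the enzyme limit 2701. Moving the Ly6c2 limit to 3 or 8 UMIs gave 2734 or 2563. Of these changes the Vcan one moved the size of the population most, but the Ly6c2 criterion was never removed.

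Receptors for recruitment came first in role. Besides Ccr2, the receptor of the monocyte chemoattractant CCL2, classical monocytes carried Ccr1 at 247 CPM (libraries 173 to 447) and Cxcr4, the receptor that holds cells in the marrow, at 158 CPM (libraries 121 to 243). Ccr1 was highest in library 1 and lowest in library 6. It was also higher in the cells with most neutrophil granule transcripts, described last. Cx3cr1, which is high on patrolling monocytes, stood at 74.4 CPM, and the lymph node homing receptor Ccr7 at 2.45. Of the adhesion molecules, Cd44, a receptor for hyaluronan, had 1492 CPM (libraries 1276 to 1841), and the integrin chains Itgb2 and Itgam had 284 and 217 CPM. Itgb7, an integrin chain better known from gut-homing lymphocytes, was at 227 CPM, close to its level in T cells (230.2) and above that in nonclassical monocytes (102), defined below.

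The cells also held transcripts of genes that serve to sense microbes and immune complexes. Of 19 pattern recognition genes in the table, 10 reached 50 CPM, beside 3349 of all 20394 genes. The signalling adaptor Tyrobp led at 2479 CPM (libraries 2249 to 2614). Clec4e (Mincle), a receptor for the mycobacterial glycolipids that complete Freund's adjuvant contains, had 347 CPM (libraries 251 to 677), and its partner Clec4d 222 CPM (libraries 168 to 399). Trem1, an amplifier of inflammatory signals, had 176 CPM (libraries 144 to 232). Trem1 and Clec4e were higher in the cells with most neutrophil granule transcripts, described last. The Toll-like receptors Tlr2 and Tlr4 stood at 309 and 75.9 CPM. Of the Fc receptors, which bind antibody, the common chain Fcer1g was the most abundant at 1769.9 CPM (libraries 1618 to 1945). The activating Fcgr3 had 231 CPM and the inhibitory Fcgr2b 106. The high-affinity receptor Fcgr1 (CD64) had 122 CPM (libraries 59.5 to 380.0), with library 1 far above library 3, the next, at 138 CPM, and 93.4 CPM was the pooled level without library 1. Clec7a was not analysed here.

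Among the inflammatory mediators, Il1b dominated. Its level was 1343 CPM (libraries 1055 to 2139), of 3487 CPM for the 17 genes. Without the cells rich in neutrophil granule transcripts, described last, the level of Il1b was 1220 CPM, and neutrophils had 1902. Alox5ap, needed for leukotriene synthesis, had 1003 CPM (libraries 862 to 1119), and Ptgs2, the inducible cyclooxygenase, 129.6 CPM (libraries 85.3 to 287). Tnf, Il6 and Il10 were low at 25.8, 10.3 and 6.31 CPM. The antagonist Il1rn had 88.0 CPM pooled and 54.9 without library 1, and ran from 24.5 in library 6 to 389.9 in library 1. The highest library was 15.9-fold above the lowest for the antagonist and 2.03-fold for Il1b itself.

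Chemokine ligands split into evenly and unevenly carried ones. Ccl6 and Ccl9, made by myeloid cells, had 547 CPM (libraries 484 to 735) and 438 CPM (libraries 406 to 495). Ccl2, the ligand of CCR2, had 301 CPM pooled, and libraries 1 to 6 had 1133, 227, 273, 224, 232 and 161 CPM. Library 1 stood apart, and without it the pooled level was 209.6 CPM. Ccl2 was counted in 52.3% of classical monocytes and 4.78% of T cells, and in 32.7% and 3.82% after thinning. Ccl7, another ligand of CCR2, had 69.6 CPM pooled and 25.2 without library 1, and 7.26% of the cells held a UMI (2.96% of T cells). In library 1 that share was 24.3%, and in the others between 3.29% and 10.1%. Cxcl9 and Cxcl10, interferon-induced ligands for T cells, were counted in 4.85% and 16.3% of the cells, and Cxcl9 was highest in library 3 at 231 CPM. T cells held a UMI of Cxcl9 in 1.81% and of Cxcl10 in 14.9% of cells. After thinning the Cxcl10 shares were 9.49% and 10.2%, so the order of the 2 cell types turned with the depth. The pooled level of Cxcl10 was 150.4 CPM and 118 without library 1.

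The transcription factors were those of the monocyte lineage. Cebpb, a factor of emergency myelopoiesis, was the most abundant at 1619 CPM (libraries 904 to 2176), with library 5 lowest and the other 5 at 1771 or more. Zeb2 had 1464 CPM (libraries 1159 to 1741), Spi1 (PU.1) 387 CPM (libraries 371 to 405) and Klf4, which is needed for monocyte formation, 361 CPM (libraries 314 to 483). Irf8 stood at 121 CPM. Maf, a macrophage factor, stood at 32.1 CPM. The neutrophil factor Gfi1 (0.866 CPM) and the dendritic cell factors Zbtb46 (1.57) and Irf4 (5.25) were near 0. Of the 4 most abundant factors, Spi1 was the most even across libraries. Cebpd was not analysed here.

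The 18 genes of coagulation and matrix outside the rule summed to 5907 CPM (libraries 5130.1 to 7084). Thbs1 (thrombospondin) led at 1653 CPM (libraries 1321 to 2226), followed by Fn1 (fibronectin) at 1302 CPM (libraries 1073 to 1760.0) and F13a1. The clotting factors F5 and F10 had 246 CPM (libraries 123 to 313) and 209 CPM (libraries 170.1 to 239). The initiators of the extrinsic pathway, F7 and F3 (tissue factor), had 3.16 and 1.41 CPM. The cells thus held transcripts of the common and the crosslinking steps, with those of the initiating step near 0.

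Of the molecules that the study followed in other experiments, Ywhaz, which encodes the parent protein of PEPITEM, had 383 CPM (libraries 339 to 461). The adiponectin receptors Adipor1 and Adipor2 had 120.1 CPM (libraries 94.8 to 152) and 103 CPM (libraries 88.0 to 118), and their adaptor Appl1 37.6 CPM (libraries 34.1 to 50.9). The study discusses the sphingosine pathway but did not measure it. Only the receptor S1pr1, the kinase Sphk1 and the transporter Spns2 of it were looked at here, with 1.97, 1.41 and 0.433 CPM. T cells had 98.7 CPM of S1pr1. Nfkb1 and Rela, subunits of NF-κB, had 316 CPM (libraries 248 to 439) and 53.0 CPM (libraries 48.3 to 64.6), and the T cell attractant Il16 had 12.1. Ywhaz, Adipor1 and Adipor2 differed by 1.36-fold, 1.60-fold and 1.34-fold between the lowest and the highest library, and Ptgs2 by 3.37-fold. Glycolysis and hypoxia genes summed to 2275 CPM, led by Pkm at 655, with library 1 highest at 3011. Immediate early and heat shock genes stood at 5624, 4996, 3929.8, 4715, 5571 and 5181 CPM in libraries 1 to 6, with library 1 highest again. Hspa1a, a heat shock protein of that list, had another order, with 552 and 635 CPM in libraries 5 and 6 and 60.0 in library 3, and was 179 in library 1.

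To place the population, it was set beside 2 others cut by their own counts: 150 nonclassical monocytes (a UMI each of Ace and Cd300e) and 420 type 2 dendritic cells (Cd209a and Flt3 without Clec9a or Xcr1). A gene was counted as higher or lower when the pooled CPM differed at least 4-fold after adding 1 CPM, reached 50 CPM in the higher population and pointed the same way in all 6 libraries. Genes of either rule were left out. No test was run, since cells are not replicates and the library numbers could not be tied to samples. Both comparisons use the same classical monocytes.

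By these counts nonclassical monocytes were the closer, although this population held between 6 and 44 cells a library. Classical monocytes were higher in 25 of 3708 genes (0.674%) and lower in 55 of 3708 genes (1.48%). Higher genes included F13a1 (1066 against 199 CPM), Ms4a4c (479.9 against 105), Itga1, a collagen-binding integrin chain (89.8 against 11.4), and the peroxiredoxin Prdx4 (100.4 against 18.9). Of the 14 cell cycle genes tested, 3 were higher (Birc5, Tyms and Stmn1) and none lower, with a median ratio of 3.05 beside 1.06 for all genes tested. Of the 9 nonclassical monocyte genes tested, 6 were lower, among them Treml4 (9.25 against 163 CPM), the muscle enolase Eno3 (1.62 against 138), the fatty acid carriers Fabp4 and Cd36, and Itgal, the LFA-1 chain used for crawling on endothelium (94.9 against 469). Pparg, a nuclear receptor for lipids, was 27.3-fold lower after adding 1 CPM (18.0 against 517 CPM). The receptor Fcgr4 was also lower (28.2 against 247 CPM). The neutrophil granule list stood at 145958 CPM in the nonclassical monocytes, and without cells rich in these transcripts 42 genes were higher and 102 lower, a choice made after the values were seen.

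Type 2 dendritic cells were the more distant by these counts. Their rule set no limit on Siglech. The other plasmacytoid dendritic cell markers summed to 1225 CPM in them (750 in library 3 to 2264 in library 6), against 247 in classical monocytes. The part of plasmacytoid cells in this distance was not tested. Classical monocytes were higher in 46 of 3744 genes (1.23%) and lower in 130 of 3744 genes (3.47%). Of the 8 class II genes, 7 were lower, with Cd74, the invariant chain, at 895 against 16064 CPM, and 6 of 7 dendritic cell genes were lower, such as Mgl2 (4.47 against 371) and Klrd1 (3.28 against 275). The chemokine Ccl17 stood at 1.48 against 124 CPM. On the other side, 5 of 10 coagulation and matrix genes were higher (F13a1, F10, F5, Thbs1 and Fn1) and 1, the protease inhibitor Timp1, was lower (12.4 against 69.6 CPM), with F10 14.6-fold higher at 209 against 13.3 CPM. Of the 15 classical monocyte genes tested, 6 were higher and none lower. The scavenger receptor Msr1 was 23.0-fold higher (167 against 6.31), Nrg1, a growth factor of the EGF family, 15.0-fold (923 against 60.4), and the phospholipase Plcb1 20.5-fold (799 against 38.0). Of the chemokine ligands, Ccl2 (301 against 43.5) and Ccl7 (69.6 against 7.39) were higher and Cxcl16 (22.3 against 189) was lower. The call of Ccl7 rested on library 1, since without it the level was 25.2 CPM, under the floor of 50. Of the macrophage transition genes, Trem2 and Apoe were higher (Apoe 373 against 77.2), and the mannose receptor Mrc1 (26.4 against 225) and the phosphatidylserine receptor Timd4 (0.0180 against 54.4) were lower.

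**Figure D2:**
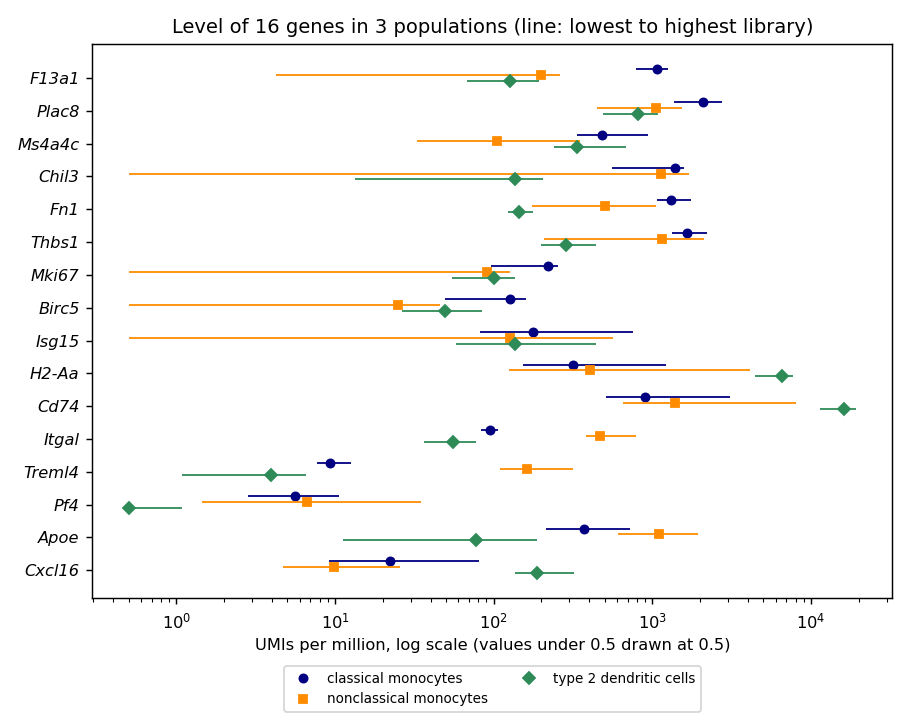
Level of 16 genes (horizontal axis, UMIs per 1000000, log scale, values under 0.5 drawn at 0.5) in classical monocytes, nonclassical monocytes and type 2 dendritic cells. Symbols are pooled levels and lines run from the lowest to the highest library, so F13a1 of classical monocytes (793 to 1256 CPM) lies above the ranges of the others and their Cd74 below that of dendritic cells.

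Classical monocytes were not uniform, and cells with many and with few transcripts of cell division differed in several gene lists, those of immune genes among them. The cells were ranked within each library by the share of their UMIs from the 14 cell cycle genes and cut into 4 groups of 662 to 667 cells. By construction these genes went from 306 to 8259 CPM and Mki67 from 3.51 to 581, which is no result. Of the lists that the ranking did not use, the lists of immune genes that were lower in the top group come first. MHC class II genes stood at 4129, 3354, 1067 and 615 CPM from the bottom to the top group, a 6.72-fold difference that pointed the same way in 6 of 6 libraries and ranged from 2.80-fold to 23.4-fold in single libraries. Type I interferon genes stood at 3647, 3000.3, 1849.5 and 1172 CPM, interferon gamma genes at 1439, 958, 592 and 476, and inflammatory mediators at 4527, 4225, 3431 and 2409, each lower in the top group in all 6 libraries. Macrophage transition genes went from 2904 to 1277 CPM and chemokine ligands from 2881 to 1461, again in all 6 libraries. The lists of pattern recognition receptors (6709 to 3969.7 CPM), Fc receptors (2924 to 1789), chemokine receptors (901 to 518), adhesion molecules (3903 to 2889) and dendritic cell genes (147 to 40.9) were also lower in the top group in all 6 libraries. The fall was not limited to lists of immune genes. Fate transcription factors (6339 to 5194 CPM), coagulation and matrix genes (6921 to 5193) and the molecules measured in the study (2067 to 1446) were lower in all 6 as well. Neutrophil granule genes and Chil3 had another order. Neutrophil granule genes stood at 17443, 50565, 68300.5 and 30247 CPM, with the top above the bottom group in 5 of 6 libraries and the highest level in the group below the top. Retnlg, a resistin-like gene of that list, had 1178, 2034, 1969 and 520.3 CPM, with the bottom above the top group in 4 of 6. Chil3 went from 1059 to 1478 CPM, in 6 of 6.

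Single genes of these lists are given for the bottom and the top group. Cd74 went from 1928 to 221 CPM between the bottom and the top group, Isg15, a ubiquitin-like protein induced by interferon, from 344 to 47.0, Apoe from 791 to 101 and Il1b from 1976 to 806. Ccl2 was less regular than its list, with 398, 277, 353 and 215 CPM over the 4 groups and the bottom above the top group in 5 of 6 libraries. Outside the lists, the genes with the largest ratio in favour of the bottom group were Tppp3 (112 to 7.47 CPM), the proteoglycan Sdc4 (76.9 to 5.63) and Ly6a, known as Sca-1 (175 to 14.9), named after their values were seen. Of the monocyte genes outside the rule, F13a1 was higher in the top group (1231 against 835 CPM, 6 of 6 libraries), whereas Plac8 (1427 against 3148) and Csf1r, the receptor for the macrophage growth factor (120.2 against 295), were lower in all 6 libraries.

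The top group also held granulocyte and monocyte precursor enzymes. Prtn3 (proteinase 3) went from 48.7 to 460.4 CPM, Elane (neutrophil elastase) from 2.77 to 199 and Ctsg (cathepsin G) from 1.85 to 105, in 6 of 6 libraries each. The rule set a ceiling on the first 2 of these genes and none on Ctsg. Prtn3 was counted in 54.8% of classical monocytes and 3.15% of T cells (33.3% and 2.38% after thinning). Mki67 was counted in 40.6% of classical monocytes. Whether cells with these transcripts had come from blood or marrow was not tested. The stem cell genes Cd34 and Kit were at 2.24 and 1.28 CPM. The list of marrow precursor genes, which includes Ctsg, did not follow as a sum (715, 642, 705 and 703 CPM). Fcnb, also of that list, went from 8.23 to 88.1 CPM between the bottom and the top group, in 6 of 6 libraries. Its other genes are not given singly over the groups. The most abundant gene of the list was the chaperone Calr, with 309 of 693 CPM over all classical monocytes. The top group was deeper, with a median of 25590.5 UMIs per cell against 15201 in the bottom group, and with every cell thinned to 5000 UMIs before ranking the class II difference was 8.13-fold, an alternative added after the values were seen.

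**Figure D3:**
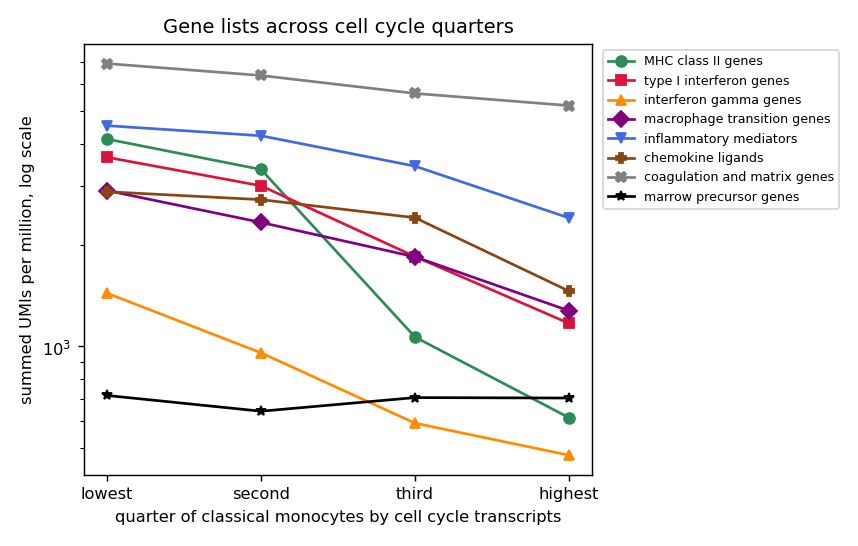
Summed level of 8 gene lists (vertical axis, UMIs per 1000000, log scale) in 4 groups of classical monocytes ranked within each library by their cell cycle transcripts (horizontal axis). Class II genes went from 4129 to 615 CPM, while the sum of marrow precursor genes stayed between 642 and 715. Ctsg and Fcnb of that sum were higher in the top group.

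Ranking by class II genes gave the view from the other end. The list stood at 79.8, 201, 535 and 7916 CPM in the 4 groups, so most of it sat in the top group. H2-Aa was counted in 20.4% of classical monocytes and in 8.12% of T cells, which in mice make little of it (14.7% and 6.71% after thinning). The top group was higher than the bottom group in Apoe (903 against 139 CPM), Il1b (2157 against 1007) and Cd209a, a marker of type 2 dendritic cells (38.3 against 0.315), in 6 of 6 libraries each. Cd209a was counted in 2.11% of the monocytes, and 4 cells held 46.6% of its UMIs. Flt3, the growth factor receptor of dendritic cells, had 6.19 CPM over all classical monocytes, against 158 in type 2 dendritic cells. F13a1 was lower in the top group (719 against 1081), as were Mki67 (61.0 against 368) and Chil3 (924 against 1772), again in all 6. Ighm, an antibody heavy chain gene, was also highest in the top group, at 148, 159, 163 and 1502 CPM over the 4 groups and the top above the bottom group in 3 of 6 libraries. B cells had 5067 CPM of the class II list, 44 classical monocytes met the rule for B cells, and their part in the ranking was not tested. The dendritic cell list itself went from 41.9 to 212 CPM, 2245 being its level in type 2 dendritic cells.

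The cells were also ranked by type I interferon genes. Across the 4 groups, the list went from 475 to 5662 CPM. Chemokine ligands went with it from 1496 to 3441 CPM and class II genes from 697 to 3740.4, while cell cycle genes went from 5713 to 1358, each in 6 of 6 libraries. Of single genes outside the list, Cxcl10 went from 33.2 to 494 CPM, Ms4a4c, one of the marker genes, from 269 to 877, Plac8 from 1356 to 3445 and Fcgr1 from 40.6 to 277. Other monocyte genes went the other way. F13a1, also a marker gene, went from 1123 to 938 CPM, with the bottom above the top group in 5 of 6 libraries. Chil3 went from 1485 to 1230 CPM, in 4 of 6. Median depth went from 22967 to 14919 UMIs per cell. All rankings given here describe the same cells and are not separate evidence.

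The type I interferon and class II genes are known to be controlled through short promoter motifs, and 5 promoter stretches are shown so that these letters can be seen beside the levels above. In the window from 250 bases before to 50 after the start of each gene (RefSeq, GRCm38.p6), the interferon-stimulated response element, spelled as GAAA, any 2 bases and GAAA again on either strand, occurred in 6 of the 11 type I interferon genes with a promoter in the table (54.5%) and in 1079 of all 27025 genes (3.99%). Windows around the matches follow, with the matches in capitals, for Isg15, Ifit3 and Rsad2, whose levels stood at 757, 92.9 and 326 CPM in library 1. They lie at chr4:156200850-156200921, minus strand, at chr19:34583348-34583441, plus strand and at chr12:26456538-26456597, minus strand.
Isg15: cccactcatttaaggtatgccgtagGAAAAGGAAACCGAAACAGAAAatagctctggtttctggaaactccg
Ifit3: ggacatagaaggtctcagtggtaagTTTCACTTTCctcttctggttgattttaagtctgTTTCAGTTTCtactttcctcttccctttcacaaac
Rsad2: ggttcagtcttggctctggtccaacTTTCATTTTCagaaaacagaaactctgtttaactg
In Isg15 the 3 overlapping matches start between 78 and 66 bases before the gene start, in Ifit3 the 2 matches at 156 and 122 bases, and in Rsad2 the single match at 120. The Y box, CTGATTGG on either strand, a motif of class II promoters that does not overlap the response element in these windows, occurred in 2 of 5 class II genes with a promoter and in 1271 of 27025 genes (4.7%). It lay 51 bases before the start of H2-Aa (chr17:34287842-34287899, minus strand) and 62 bases before that of H2-Eb1 (chr17:34305780-34305837, plus strand).
H2-Aa: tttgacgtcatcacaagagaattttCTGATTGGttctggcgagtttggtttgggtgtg
H2-Eb1: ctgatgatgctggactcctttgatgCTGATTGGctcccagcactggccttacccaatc
The E2F motif of cell cycle promoters, TTTCCCGC on either strand, occurred in 334 of 27025 genes (1.24%) and in 1 of 13 cell cycle genes with a promoter (7.69%), Pclaf, which is not in the count table under that symbol, and no stretch is shown for it. A match is a run of letters and not a measured binding site, and a gene without one may carry it elsewhere or in another spelling.

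Between libraries most genes were at like levels. Of 3349 genes at 50 CPM or more, 113 (3.37%) differed at least 3-fold between the lowest and the highest library, and the median gene differed 1.42-fold. Of the 113, 51 were highest in library 1, and 22, 16, 1, 7 and 16 in libraries 2 to 6. How many of all 3349 genes were highest in each library was not counted. Type I interferon genes stood at 4967, 1598, 2046, 1646, 2159.8 and 1929 CPM in libraries 1 to 6, and 1932 CPM was the pooled level without library 1 beside 2231 with it. Isg15 was 757, 96.4, 151, 96.7, 146 and 82.3 CPM and Rsad2, which encodes viperin, 326, 56.6, 42.8, 19.6, 52.3 and 39.7. Library 1 was alone in this and did not overlap the other libraries, and without it the pooled levels were 112 CPM of Isg15 and 44.1 of Rsad2, beside 176 and 71.9 with it. It was also highest in Ccl7, Ccl2, Spp1 (943 CPM, next 202, and 175 pooled or 90.4 without library 1), Fcgr1 and Il1rn, and lowest in the cell cycle list (1802, 3708, 2415, 3482, 4069.8 and 3885 CPM).

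The interferon difference was not limited to these cells. The list was also highest in library 1 in nonclassical monocytes (3549 CPM against 2069.9 or less in libraries 2 to 6), type 2 dendritic cells (3055 CPM against 2080.0 or less), T cells (2764 CPM against 1618 or less), B cells (939 CPM against 821 or less) and neutrophils (892 CPM against 654 or less). The cell cycle list was lowest in library 1 in classical monocytes and next to lowest in nonclassical monocytes (526 CPM), B cells (3741) and neutrophils (2756), while library 1 was in the middle in type 2 dendritic cells (1413) and next to highest in T cells (2373).

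Class II genes followed another order. Libraries 1 to 6 had 4769, 1195, 6974, 2416, 1325 and 1156 CPM of the list, so library 3 was highest and library 1 next, and library 6 lowest. Library 3 also led in Cxcl9 and Gbp2, both induced by interferon gamma (261 CPM of Gbp2, 34.8 in library 2). In T cells the class II list stood at 5211, 1312, 5087, 1949.6, 1570.1 and 950.3 CPM, also high in libraries 1 and 3. Its part in the levels of the monocytes was not tested. Library 3 held the fewest classical monocytes, 148, and without it the ratio of class II genes between the groups ranked by cell cycle was 7.96.

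**Figure D4:**
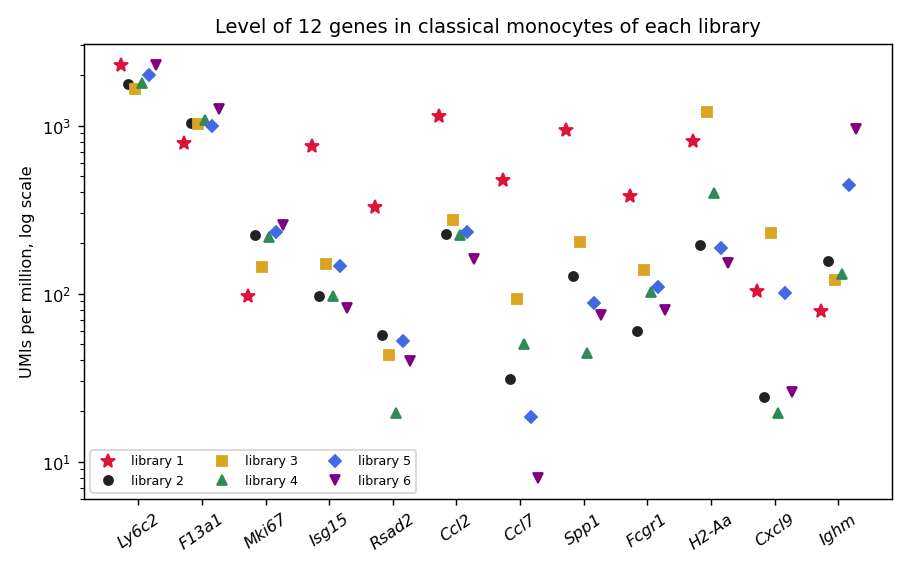
Level of 12 genes (vertical axis, UMIs per 1000000, log scale) in the classical monocytes of each library, 1 symbol per library. Library 1 (stars) lies apart for Isg15 (757 CPM), Rsad2, Ccl2, Ccl7, Spp1 and Fcgr1, which vary more than Ly6c2 and F13a1. It is lowest for Mki67.

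Neutrophil granule transcripts were the largest exception to the monocyte profile. The 14 genes of that list summed to 42199 CPM pooled and to 25948 as the mean of single cells, with S100a9 the most abundant gene of all at 16511 CPM. They sat in few cells. The 451 classical monocytes with over 2% of their UMIs from the list, 17.0% of the population, held 98.2% of these UMIs, and the remaining cells had 984 CPM. The 2% limit was set after the values were seen, and 115 cells lay between 1% and 4%, so the class is a range. Libraries 1 to 6 had 19.3, 23.0, 7.43, 5.78, 21.7 and 14.3% of such cells. Libraries 3 and 4 were lowest, and their intervals did not overlap those of libraries 1, 2 and 5. Neutrophils made up 6.71% of library 3 and 22.6% of library 4.

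In the cells rich in them, the summed counts of granule genes had proportions near those of neutrophils. For each 100 UMIs of S100a8 the rich cells held 17.9 of the antimicrobial peptide Camp and 18.9 of Ngp. Neutrophils held 18.7 and 19.4, and B cells, which should make neither, held 16.4 and 18.1. Single cells differed, and S100a8 was counted in 100% but Camp in 59.0% and Ngp in 68.7% of the rich cells. Their level of S100a8 was 61591 CPM against 132966 in neutrophils and 9139.9 in B cells. Of the monocyte genes outside the rule, F13a1 stood at 606 CPM in the rich and 1217 in the other monocytes, Plac8 at 1592 and 2267, and Ms4a4c at 335 and 527. Chil3 was higher in the rich cells, at 1923 against 1224 CPM, and neutrophils had 2778. Classical monocytes were also ranked within each library by the granule list and cut into 4 groups. From the bottom to the top group Trem1 went from 93.0 to 304 CPM, Clec4e from 265 to 453 and Ccr1 from 172 to 310. Il1b went from 924 to 1791 CPM, and all of these rose in 6 of 6 libraries. Cxcr4 (152 and 153) and Fcgr1 (126 and 102) did not rise. The part of neutrophil transcripts in these levels was not tested. Rich cells were deeper, with a median of 26717 against 16699 UMIs. The authors had removed ambient RNA and doublets, and in 88.6% of the other monocytes S100a8 is stored as an explicit 0. Free RNA and doublets were not tested as sources of the rest.

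**Figure D5:**
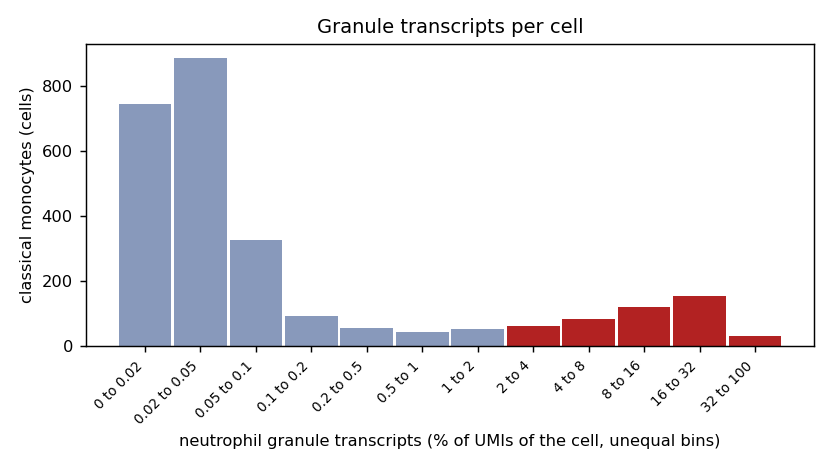
Classical monocytes (vertical axis, cells) by the percentage of their UMIs from 14 neutrophil granule genes (horizontal axis, bins of unequal width). Red bars mark the 451 cells above 2%, with 154 cells in the bin from 16% to 32% and 53 in that from 1% to 2%.

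B cell genes were low except for the antibody chains. Cd79a had 8.57 CPM and Ms4a1 2.35. Igkc reached 722 CPM, of which 4 cells held 97.1%, and 4 cells had over 100 UMIs of Jchain, a plasma cell gene, 1 in library 5 and 3 in library 6. Igkc and Jchain were named after their values were seen. Igkc had 334 CPM without library 6, and the B cell markers, led by Ighm, stood at 84.5, 208, 143, 149, 463 and 978 CPM in libraries 1 to 6 and at 289 without library 6. Of the Ighm UMIs, 4 cells held 66.8%. Ighm was also present at low levels in many cells. It lies at chr12:113418558-113422730 in GRCm38, was counted in 79.5% of classical monocytes, and the 2306 cells without any UMI of Igkc, Cd79a, Cd79b or Jchain still had 138 CPM. In cells chosen the same way, type 2 dendritic cells had 112 CPM, nonclassical monocytes 104, T cells 72.6 and neutrophils 34.4, and the classical monocytes ran from 67.5 in library 1 to 172 in library 6. Type 2 dendritic cells were above the classical monocytes in libraries 1, 2 and 6, and nonclassical monocytes in libraries 1 and 3. The classical monocytes were above the T cells in 6 of 6 libraries, with a median depth of 17618 against 10021 UMIs. This selection of cells was made after the values were seen, and free RNA as a source was not tested.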

How the data were processed

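The authors prepared 3′ single-cell libraries, and per the labels the reads were processed with Cell Ranger version 7 on mm10. The authors removed ambient RNA with SoupX and doublets with DoubletFinder and filtered cells on gene number and mitochondrial share. The deposited values are whole UMI counts of 20394 genes in 32953 cells, pooled over 6 libraries. Members were chosen from these counts, and the members, gene lists and rules were chosen with earlier results of these data known. Counts were summed per population and library and given as CPM with exact Poisson intervals, and shares with Wilson intervals (Python 3.11.15, scipy 1.17.1, statsmodels 0.14.6). The library numbers could not be tied to samples, so the pooled table was handled as 1 sample, no test was run, and the planned comparison of PBS with PEPITEM was not made. Named genes were those of the fixed lists, the 10 largest ratios in each direction per comparison, Ptprc as the marker of the sort, and others said to be picked after their values were seen. The comparison script was tested on simulated data. Members held a median of 17971 UMIs. A few genes, 1 of them in the rule, and a planned comparison with another population are not reported here. Further settings are given in the closing section. Promoters were read from RefSeq and gene positions from GENCODE M21, both of GRCm38.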

Additional observations from a re-analysis of the deposited data

How the results depend on the processing

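No paired analysis was possible because the replicate numbers of the PBS and PEPITEM samples could not be tied to library numbers. This concerns PBS and PEPITEM alone. Populations and ranked groups share libraries and were compared within each by direction, and no paired test of them was run. The share of classical monocytes, 8.07%, was 11.7% without the Vcan criterion, 6.87% with cells thinned to 5000 UMIs, 5.95% without cells with markers of other cell types and 6.70% without cells rich in granule transcripts, and 7.45% to 8.64% when each library was left out in turn. Against nonclassical monocytes the 25 higher genes became 16 with a pseudocount of 5 CPM, 39 with a floor of 20 CPM, 67 at 3-fold, 64 with the mean of single cells and 42 without granule-rich cells, and 19 to 32 with a library left out. The 55 lower genes became 91 at 3-fold, 101 with the mean of single cells and 102 without granule-rich cells, and 43 to 63 with a library left out. Against type 2 dendritic cells the 46 higher genes became 98 at 3-fold and 89 without granule-rich cells (46 to 51), and the 130 lower genes 214 with a floor of 20 CPM (124 to 142). Lower floors and folds admit more genes by construction. The other changes were not traced to a cause. The class II ratio between the groups ranked by cell cycle stayed above 1 in each alternative run, between 5.19 and 8.73 with a library left out, 9.49 without granule-rich cells and 7.03 with the mean of single cells. Of the 21 gene lists, 16 summed to at least 1000 CPM, and the same number did so with each library left out. The summed neutrophil granule list went from 42199 to 5665 CPM without cells with markers of other cell types, to 984 without granule-rich cells and to 25948 as the mean of single cells. The granule-rich alternatives and the thinned ranking were added after the values were seen. None of the values recomputed under these alternatives changed direction. The shares of cells with a UMI of Cxcl10 did change order between classical monocytes and T cells after thinning (16.3% against 14.9% before, 9.49% against 10.2% after). With 6 to 44 nonclassical monocytes a library, a gene of a few UMIs can fail the requirement of all 6 libraries.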

Other observations

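Other genes differed between the libraries in the classical monocytes, and were picked for the size of that difference after the values were seen. Irg1, the enzyme that makes itaconate in activated macrophages, stood at 356, 256, 176, 43.0, 118 and 73.1 CPM in libraries 1 to 6. Ly6a, a surface protein induced by interferon, had 309.8, 33.0, 109.8, 23.8, 61.4 and 22.6 CPM, and Fgl2, a prothrombinase, 320.3, 43.1, 149.9, 84.8, 68.2 and 68.1. Library 1 was the highest for each of these genes. Slfn4, a schlafen family member, was 278 CPM in library 1 and 20.7 in library 3. Dach1, a transcription factor gene, was lowest in libraries 4 and 3, the libraries with the fewest cells rich in granule transcripts (17.9 and 18.6 CPM, 144 in library 2), and the part of those cells in its level was not tested. Hsph1, a heat shock protein gene, was highest in library 6, with 23.8, 19.6, 6.67, 42.4, 55.0 and 94.9 CPM in libraries 1 to 6.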
